A study of Mus musculus with 4 samples.

Results

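CTCF binding regions on the 19 autosomes of mouse embryonic stem cells are described here by their length, their spacing, their density and their position relative to genes. They are 50546 peaks, every autosomal row of a union list of 51793 CTCF peaks, out of 149438 peaks in the 3 peak lists of the series. The line was Bruce-4, which is of embryonic stem cell type and C57BL/6J genotype, kept in medium with serum/2i/LIF; the labels name no treatment. Each library started from 10000000 cells that had been crosslinked in 1% formaldehyde (10 min), and CTCF was pulled down with an antibody for ChIP-exo. In ChIP-exo an exonuclease digests the precipitated DNA up to the crosslinked protein, so the sequenced ends lie close to the site of binding. Of 4 libraries in the series 2 were made for CTCF, and a single union list, recorded under the second of them, stands for both. Each row held a chromosome, a start and an end (mm10), with no height or score. Depth was therefore unknown, no replicate error could be had, and no significance test was run. Wilson 95% intervals cover counting error only, and the autosomes, given as a range or an SD, are not replicates of the experiment. Positions alone cannot be used to check the cell type.

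CTCF is a zinc finger protein that binds a long, asymmetric DNA motif. It halts the cohesin ring as cohesin extrudes chromatin loops, so the places where CTCF sits set where many loops and domain borders lie. CTCF is known to bind at promoters, inside genes and far from genes, and its sites are known to be crowded in gene-rich chromatin. The space between neighbouring sites is the stretch of chromatin in which no CTCF was called.

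Sequences show what such a peak holds. RefSeq promoters (GRCm38.p6, the assembly that mm10 names; 250 bases before to 50 after an annotated start) were the only sequence used here, and 1125 autosomal CTCF peaks lay wholly in one. The core of the CTCF motif was searched on both strands as CCA, any 2 bases, AG, any 2 bases and GGC, which is 12 letters. The first 4 sequences are stretches around the match in the 4 longest such peaks that held one, written 5′ to 3′ in the direction of the gene, with the match in capitals and nothing after the start shown.
Rasgrp2, chr19:6401601-6401660: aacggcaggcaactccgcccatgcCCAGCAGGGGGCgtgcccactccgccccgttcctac
Chrna1os, chr2:73584731-73584790: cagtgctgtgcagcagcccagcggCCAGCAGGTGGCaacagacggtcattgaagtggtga
Scap, chr9:110333229-110333287: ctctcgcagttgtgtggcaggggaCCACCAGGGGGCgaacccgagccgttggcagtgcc
2410004P03Rik, chr12:17011752-17011811: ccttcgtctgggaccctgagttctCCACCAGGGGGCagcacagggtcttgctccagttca
The next 2 are the centres of the longest promoter peaks without a match to this spelling. Scmh1 has no match to a looser spelling given below either, whereas Gm11691 has one, so only the former stands for a peak without the motif in either form.
Scmh1, chr4:120405219-120405278: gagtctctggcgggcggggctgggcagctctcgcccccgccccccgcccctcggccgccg
Gm11691, chr11:114251707-114251766: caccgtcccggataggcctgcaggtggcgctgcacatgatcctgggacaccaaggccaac
The last 2 are whole peaks of 37 bp that held a match, the first in alphabetical order of 6 peaks below 40 bp lying before the start, chosen after their values were seen.
Gm10044, chr14:7791621-7791657: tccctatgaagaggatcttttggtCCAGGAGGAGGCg
Gm20559, chr6:3346181-3346217: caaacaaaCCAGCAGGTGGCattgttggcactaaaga
Rasgrp2, Scap and Chrna1os lie on the plus strand and 2410004P03Rik, Gm10044 and Gm20559 on the minus strand; in all 6 the match read in the direction of the gene.

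Of the 1125 promoter peaks 135 held a match (12%, 95% interval 10.2 to 14.0%), and the median distance from the middle of the match to the middle of the peak was 10 bp (quartiles 4.5 and 24.25 bp). Among all 31365 autosomal promoters of 300 bases, 2.47% held a match. The share was 11.9% in the 2446 promoters that a CTCF peak touched and 1.67% in the 28919 that none touched. In promoters annotated on a single strand the match ran with the gene in 90 cases and against it in 42, or 68.2% with the gene (95% interval 59.8 to 75.5%). Counted over whole promoters, 61.7% of matches ran with the gene where a peak touched the promoter and 51.8% where none did. A looser spelling, with any base in place of the first A, which takes in every match of the stricter one, was present in 29.6% of the peaks and 8.73% of all promoters. With it 65.8% of matches in peaks ran with the gene (95% interval 60.6 to 70.6%).

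Matches were most frequent in peaks of intermediate length. In a fixed stretch of 100 bp around the midpoint a match was found in 5.39% of 167 peaks below 40 bp and in 7.81% of 192 peaks of 40 to below 80 bp. The share was 16.7% of 287 peaks of 80 to below 120 bp (95% interval 12.9 to 21.5%), 13.4% of 291 peaks of 120 to below 200 bp and 6.45% of 93 peaks of 200 bp or more (95% interval 2.99 to 13.4%). The central 100 bp of promoters that no peak touched held a match in 0.584%. Within the whole peak the share was 3.03% below 40 bp and 14.0% at 200 bp or more, so long promoter peaks often held their match away from the centre. Peaks below 40 bp had a median of 64.1% G and C and those of 200 bp or more 60.4%. Only peaks that fit in a promoter enter these shares, which cuts off the longest peaks, and no sequence outside promoters was analysed here.

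The peaks were short and of mixed length. Their median length was 104 bp, with quartiles of 58 and 186 bp; 10% were longer than 258 bp, and together the peaks covered 6.74 Mb. The shortest class, below 40 bp, held 7575 peaks (14.99%, 95% interval 14.7 to 15.3%), 40 to below 80 bp held 11029 (21.8%) and 80 to below 120 bp held 9621 (19.03%). The class of 120 to below 200 bp held 11753 (23.3%) and that of 200 bp or more 10568 (20.9%). The longest class made up 44.3% of the covered sequence and the shortest 4.28%. In steps of 10 bp, the number of peaks went down from 2845 in the step from 80 bp to 1393 in that from 140 bp, went up again to 1514 in that from 180 bp, and was 606 in that from 250 bp, so the lengths formed a second, low crest just below 200 bp. Length classes were spread evenly over chromosomes: the median length ran from 95 bp on chromosome 12 to 114 bp on chromosomes 8 and 19, and the share below 40 bp from 13.3% on chromosome 7 to 16.5% on chromosomes 1 and 12.

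**Figure D1:**
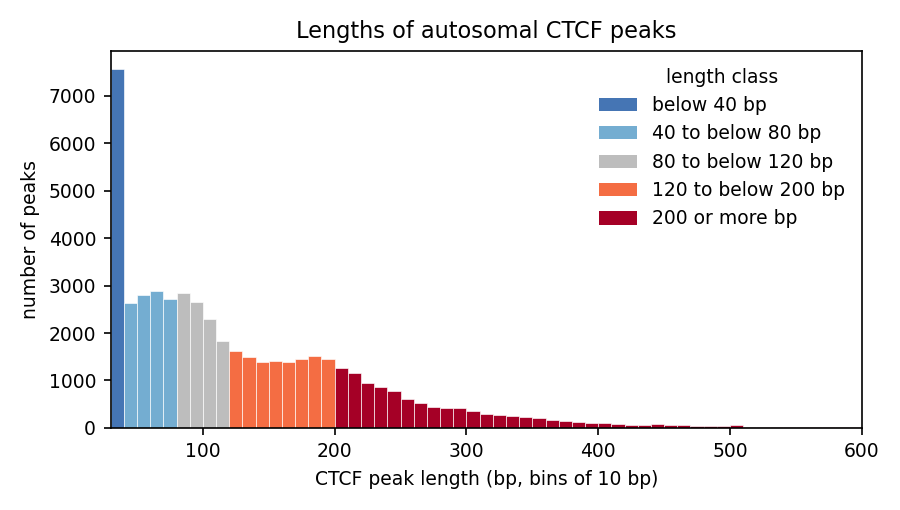
Number of autosomal CTCF peaks (vertical axis) by length in bp (horizontal axis, bins of 10 bp up to 600 bp), coloured by length class. The first bar, below 40 bp, holds 7575 peaks and stands above every other bar, and a low second crest lies just below 200 bp.

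The shortest lengths were fixed values. No peak was shorter than 37 bp. Exactly 37 bp was the length of 3212 peaks (6.35%) and exactly 39 bp that of 4115 (8.14%), while 248 had 38 bp and any single length from 40 to 99 bp was taken by 233 to 323 peaks. These 2 lengths together held 7327 peaks (14.5%, 95% interval 14.2 to 14.8%). The sources used here do not describe the making of the union. Peaks of the 2 lengths were alike in position. At gene ends, within 1 kb of either end of a coding or lncRNA gene, lay 13.9% of the 37 bp peaks (95% interval 12.7 to 15.1%) and 14.7% of the 39 bp peaks (13.7 to 15.8%). They were less alike in spacing: 6.35% of the 37 bp peaks and 3.21% of the 39 bp peaks had another CTCF peak within 300 bp, against 2.31% of the peaks of 40 bp or more. Both were more often isolated, with no other peak within 50 kb for 11.6% and 12.6%, against 7.94% of longer peaks.

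The coding genes nearest to the longest peaks were of many kinds. The longest, 1074 bp, spanned chromosome 11, 79019109 to 79020182 (mm10), inside Ksr1, which encodes a scaffold of the MAP kinase cascade. A peak of 1033 bp at chromosome 5, 134965663 to 134966695, was 18729 bp from Cldn4, a tight junction claudin. A peak of 1030 bp at chromosome 7, 6282742 to 6283771, was 881 bp from Epp13. The other 7 of the 10 longest ranged from 823 to 910 bp. Of these, the 873 bp peak lay inside Kif28, a kinesin family gene, and the others lay 1414 to 14522 bp from Srrm3, Enah, Creld2, Fzd8, Rpia or Malt1. They were not isolated: the nearest peak to the 824 bp peak by Rpia was 426 bp away, and the other 9 had one between 4950 and 20147 bp away.

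Of the size classes used here, which differ in width, 10 to 50 kb held the most gaps between neighbouring CTCF peaks. Among 50527 gaps, measured from the end of a peak to the start of the next, the mean was 47261 bp and the median 16751 bp (quartiles 6248.5 and 43366.5 bp). The mean was 2.82 times the median, where independent evenly random positions would give 1.44 times, so the list combined crowded stretches with long empty ones. Gaps of 10 to 50 kb made up 42.1% and gaps up to 10 kb 36.04%. The 1602 gaps above 250 kb were 3.17% of all gaps and held 35.2% of the sequence between peaks, and the 3557 longest gaps (7.04%) held 50 percent of it. The RAD21 list of the same series, 74004 autosomal peaks of a cohesin subunit, had a median gap of 15642 bp and a 90th percentile of 72123 bp, against 102061 bp for CTCF. These are side-by-side values of single lists with no test.

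**Figure D2:**
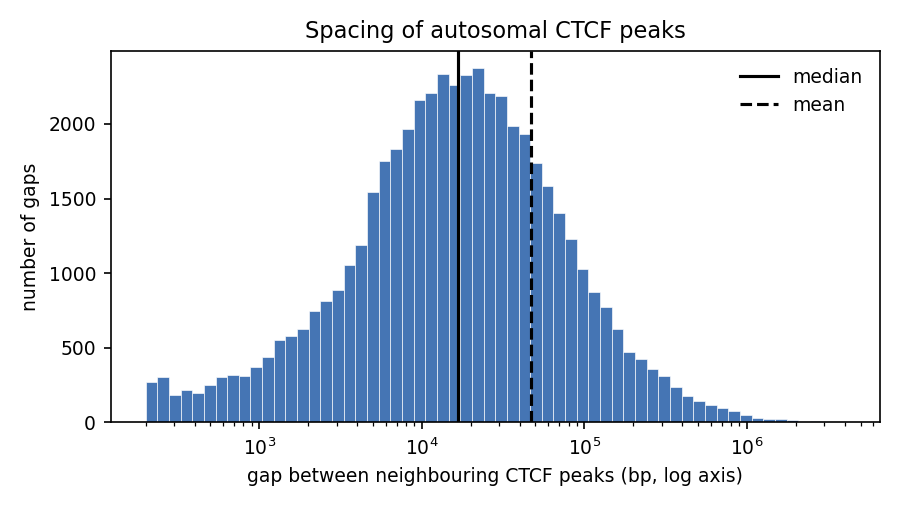
Number of gaps (vertical axis) between neighbouring autosomal CTCF peaks by size in bp (horizontal axis, log scale, bins of equal width on that scale). The solid line marks the median of 16751 bp and the dashed line the mean of 47261 bp, and the left edge lies at 201 bp, the smallest gap.

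Chromosomes differed in spacing. The median gap was 13095 bp on chromosome 11 and 24579 bp on chromosome 13, with an SD of 3270 bp over the 19 autosomes. Peaks per Mb ran from 15.2 on chromosome 3 to 32.2 on chromosome 11, which carry 6.26 and 13.5 coding genes per Mb. Density was also uneven along chromosomes. The last 10% of a chromosome's windows, at the end away from the centromere, had 29.3 peaks per Mb on average and the first 10% had 14.5, with more in the last than in the first on 16 of 19 autosomes. The last 10% had 9.66 coding genes per Mb and the first 6.57.

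Gap sizes were weakly related from one gap to the next. The gap before a peak and the gap after it had a Spearman correlation of 0.196 over 50508 peaks, between 0.112 and 0.243 on single autosomes. The difference was among the wide gaps. In 5 equal groups by the gap before, from narrow to wide, the median of the next gap was 13681, 13133, 14231.5, 18009 and 33780 bp. The gaps share their middle peak and the local gene content. The length of a peak said almost nothing about the length of the next (Spearman 0.0204, n = 50527) or about the distance to the nearest peak (Spearman -0.00134, n = 50546). The nearest peak was a median of 8682 bp away for peaks below 40 bp, 7042 bp for those of 80 to below 120 bp and 8714 bp for those of 200 bp or more. The spread differed on both sides of these medians. For the shortest class the nearest peak was within 1 kb in 12.7% and more than 50 kb away in 12.1%, and for the longest class in 9.22% and 6.05%. The share beyond 50 kb was higher for the shortest class on 19 of 19 autosomes.

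No gap was smaller than 201 bp, so peaks up to 200 bp apart do not exist in this list as separate rows. Just above that limit gaps were crowded: 385 were of 201 to 250 bp and 286 of 251 to 300 bp, against 174 of 301 to 350 bp and 174 of 351 to 400 bp. Per 100 bp this was 770 gaps at 201 to 250 bp and 225.5 at 1001 to 2000 bp. Of the 671 gaps up to 300 bp, 48.0% had a peak below 40 bp on at least 1 side, against 27.5% of all gaps. The shorter peak of such a pair had a median of 43 bp and the longer 155 bp, and for pairs more than 10 kb apart the medians were 65 and 171 bp. Of the peaks that bound gaps up to 300 bp 23.4% lay at gene ends, against 15.2% of those that bound gaps of 10 to 50 kb and 6.43% of those that bound gaps above 250 kb.

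Runs of peaks, each up to 1 kb from the next, were mostly pairs. Runs took in 5121 peaks (10.1%), as 2368 pairs, 116 triplets, 8 runs of 4 and 1 run of 5. The run of 5 lay in Gnat1, which encodes the transducin alpha subunit of rod photoreceptors, at chromosome 9, 107675810 to 107678344. Its peaks were 39, 254, 118, 92 and 483 bp long, with gaps of 255, 834, 222 and 238 bp. A run of 4 lay in Ptpn3, a protein tyrosine phosphatase gene, at chromosome 4, 57299936 to 57301155, with peaks of 39, 79, 58 and 54 bp and gaps of 524, 210 and 256 bp. Of the 8 runs of 4, 4 are described. Others of them were in Pdzd7, a gene of the hair cell stereocilia, at chromosome 19, 45030203 to 45032882, and 4445 bp from Msl1, a subunit of a histone acetyltransferase complex. The last was 18614 bp from Tnfrsf9, a T cell co-stimulatory receptor. Each of these runs held short peaks beside longer ones except the Ptpn3 run, where no peak was longer than 79 bp.

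The 5 longest gaps that held a whole coding gene were of different make. The longest, which was also the longest of all, 3312814 bp at chromosome 7, 20064423 to 23377236, held 86 whole coding genes, the longest of them Nlrp4e, an NLR family gene expressed in oocytes, Gm5891 and Gm10662. A gap of 3166201 bp at chromosome 7, 7188663 to 10354863, held 28 coding genes led by the vomeronasal receptor genes Vmn2r29, Vmn2r35 and Vmn2r48. Others held almost no coding gene. A gap of 3290514 bp at chromosome 3, 45555950 to 48846463, held Pabpc4l alone, and a gap of 3061591 bp at chromosome 13, 86477672 to 89539262, held Edil3 alone, which encodes an integrin ligand of the extracellular matrix. The peaks at the borders of the Edil3 gap were 39 and 58 bp long. A gap of 2816517 bp on chromosome 1, 144406877 to 147223393, held Brinp3, Rgs21 and Rgs18. Wide gaps were more often bounded by short calls: 22.7% of the peaks at gaps above 250 kb were below 40 bp and 12.3% were 200 bp or more, against 14.6% and 23.2% at gaps of 10 to 50 kb.

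Many coding genes lay between 2 neighbouring peaks with no CTCF called in them. Absence here is absence of a call, since how well reads can be placed and where the assembly has gaps were not examined. In all 9868 of 20560 coding genes were wholly inside a gap, in 5774 gaps (11.4%). Most such gaps held 1 gene (4224, median gap 41253.5 bp), and 237 held 5 or more (median gap 267354 bp). The 2486 genes of those 237 gaps included 931 olfactory receptor genes (37.4%) and 267 vomeronasal receptor genes (10.7%), and these families supplied most of the genes in 94 of the gaps. After the chromosome 7 gap with 86 genes, the gaps with most genes were 3 on chromosome 2, with 44, 44 and 40 genes led by Olfr1033, Olfr32 and Olfr1213, and 1 on chromosome 9, with 42 genes, among them Vwa5a and Olfr920. Per Mb, gaps of 10 to 50 kb held 6.44 whole coding genes and gaps above 250 kb 2.83. A coding gene end lay in 13.4% of gaps of 1 to 5 kb, 44.5% of gaps of 10 to 50 kb and 57.7% of gaps above 250 kb. A longer gap has more room for a gene end, so these shares do not compare the density of gene ends.

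CTCF density followed gene density. In 2411 windows of 1 Mb the number of CTCF peaks ranged from 0 to 106 with a median of 16 (quartiles 7 and 31), and its Spearman correlation with the number of coding genes was 0.752 (Pearson 0.676). Within single autosomes Spearman's value ran from 0.513 on chromosome 7 to 0.905 on chromosome 15. Windows next to each other are not independent, and all points come from the same list. How well reads can be placed in each window, and where the assembly has gaps, was not examined. Without the 1454 olfactory and vomeronasal receptor genes Spearman's value was 0.804 and Pearson's 0.760. With lncRNA genes in place of coding genes it was 0.699 (Pearson 0.625). By length, Spearman's value was 0.590 for peaks below 40 bp, 0.632, 0.671 and 0.703 for the classes in between and 0.723 for peaks of 200 bp or more. The classes differ in number of peaks, which also moves such a value.

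Windows without a coding gene held a median of 2 peaks (quartiles 1 and 4), those with 1 to 4 genes 9 and those with 5 to 9 genes 21. With 10 to 19 genes the median was 33, with 20 to 39 genes 46 and with 40 or more 60 (quartiles 28.25 and 71.25). The number of peaks thus grew more slowly than the number of genes, from 4.90 peaks per coding gene in windows of 1 to 4 genes to 1.06 in windows of 40 or more. Peaks in gene-rich windows were also longer. The median length was 73 bp and the share below 40 bp 22.2% in windows without coding genes, against 116 bp and 12.9% in windows of 40 or more. Density was shared by neighbours: the numbers of peaks in windows 1 Mb apart had a Spearman correlation of 0.618, falling to 0.166 at 5 Mb and 0.0756 at 20 Mb. For coding genes these values were 0.559, 0.182 and 0.0912.

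**Figure D3:**
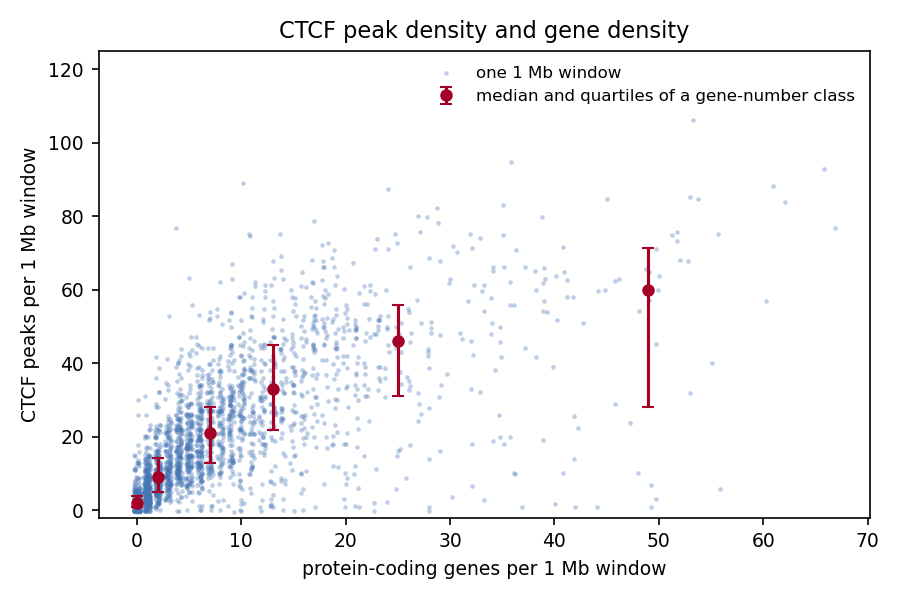
CTCF peaks per 1 Mb window (vertical axis) against protein-coding genes in the window (horizontal axis); each blue point is a window, shifted by up to 0.3 so that points do not hide each other. Red points and bars give the median and quartiles of windows with 0, 1 to 4, 5 to 9, 10 to 19, 20 to 39 and 40 or more genes, with medians of 2, 9, 21, 33, 46 and 60 peaks, and gene-rich windows with almost no peak lie along the lower edge.

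The most crowded windows held different gene sets. On chromosome 7 the window from 19 to 20 Mb had 106 peaks and 53 coding genes, the longest being Mark4, a microtubule affinity kinase, Ppp1r37 and Exoc3l2. It lies right before the longest gap of all, which begins at 20064423. On chromosome 8 the window from 84 to 85 Mb had 95 peaks and 36 coding genes, among them Cacna1a, a neuronal calcium channel, and Nfix, a transcription factor. The windows from 45 to 46 Mb on chromosome 7 (93 peaks, 66 genes, with Grin2d) and from 35 to 36 Mb on chromosome 17 (88 peaks, 61 genes, with Ddr1 and Msh5) were also gene-rich. The fourth by rank had fewer coding genes: 168 to 169 Mb on chromosome 2 had 89 peaks with 10 coding genes, among them Nfatc2, a transcription factor of the calcineurin pathway, and Atp9a. It also held 16 lncRNA genes, and the median over all windows was 5 coding genes.

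Of 267 windows with 20 or more coding genes, 25 had fewer than 10 peaks, and in 21 of these 25 most coding genes were olfactory or vomeronasal receptors. In all 2 had 0 peaks and 8 had 1 peak, of which the first 3 in the text order of chromosome names (13, 17, 2) are described here. On chromosome 7 the windows from 21 to 22 and from 22 to 23 Mb had 0 peaks with 23 and 28 coding genes, of which 19 and 22 were vomeronasal or olfactory receptors. The window from 86 to 87 Mb on chromosome 2 had 1 peak and 49 coding genes, all 49 receptors. On chromosome 17 the window from 20 to 21 Mb had 1 peak, of 40 bp, and 21 genes with 17 receptors. A different family filled the window from 27 to 28 Mb on chromosome 13, where 21 coding genes led by Prl3a1, Prl7a2 and Prl7a1, of the placental prolactin family, came with 1 peak of 271 bp. Conversely, windows without a coding gene midpoint reached 30 peaks (chromosome 14, 53 to 54 Mb, 2 lncRNA genes, median length 63.5 bp) and 26 peaks (chromosome 5, 126 to 127 Mb, 6 lncRNA genes, 62.5 bp). Only genes annotated as coding or lncRNA were counted, so such windows can hold genes of other types and are not shown to be gene-free. The next 3 had 18, 16 and 15, the window with 16 being reached by Rora, a nuclear receptor gene.

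CTCF peaks lay more often at gene ends and less often between genes than the sequence itself. A midpoint within 1 kb of an end of a coding or lncRNA gene was found for 7449 peaks (14.7%, 95% interval 14.4 to 15.05%), where such stretches are 4.91% of the autosomal sequence analysed. Inside genes lay 25435 (50.3%, against 44.96% of sequence) and between genes 17662 (34.9%, against 50.1%). Density was 63.2 peaks per Mb at gene ends, 23.5 inside genes and 14.7 between genes. Single autosomes ranged from 11.5 to 18.8% at gene ends, from 45.9 to 53.9% inside and from 30.8 to 40.5% between. Peaks at gene ends were longer, with a median of 118 bp, than those inside (101 bp) or between genes (103 bp), and closer to another peak, at a median of 6230 bp against 8125 and 8504 bp. Exons and introns could not be separated with the tables used here.

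Position differed by a few points between length classes. The share at gene ends was 14.2% below 40 bp (95% interval 13.4 to 14.98%), 11.8% at 40 to below 80 bp (11.2 to 12.4%), 14.4% and 15.3% in the next 2 classes and 17.8% at 200 bp or more (17.1 to 18.5%). The order was therefore not monotonic, with its low point in the second class. The share of the shortest class minus that of the longest was -3.77 points on average over autosomes (SD 2.31, n = 19 autosomes) and above 0 on 1 of 19. The share of the second class minus that of the longest was -5.92 points (SD 2.05) and above 0 on 0 of 19. Inside genes the order was turned, with 51.5% of the shortest, 52.8% of the second and 48.6% of the longest class. The shortest class was 2.97 points above the longest and higher on 17 of 19 autosomes, and the second class was 4.24 points above it and higher on 18 of 19. The share between genes stayed within 33.6 to 36.3% in all 5 classes, and between the shortest and longest class it differed by 0.65 points, with the shortest higher on 10 of 19 autosomes.

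**Figure D4:**
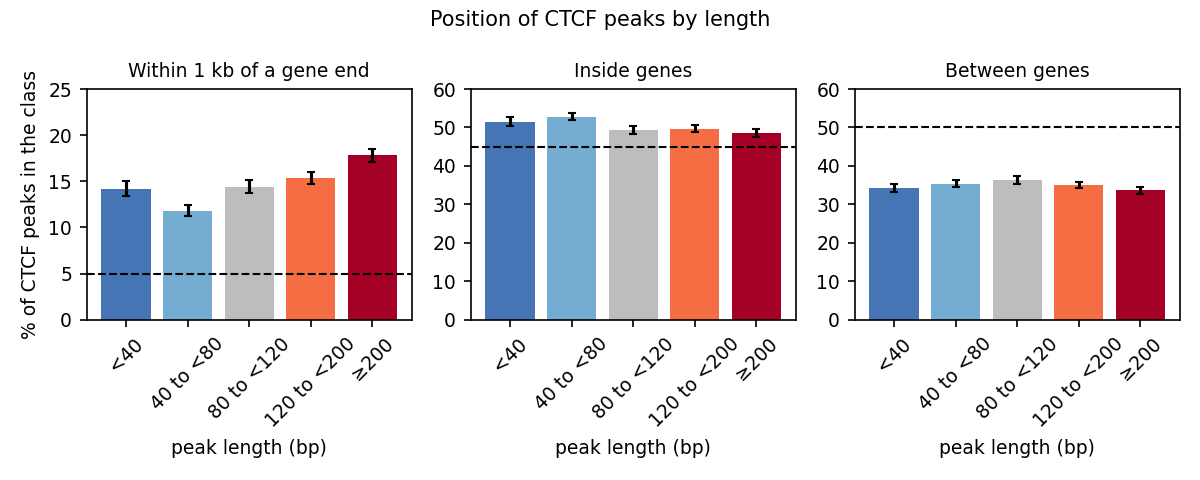
Share of CTCF peaks (%, vertical axes) within 1 kb of a gene end, inside genes and between genes for the 5 length classes (horizontal axes, bp), shown as columns with Wilson 95% intervals as error bars, and the share of autosomal sequence in that position as a dashed line. Every class lies above the line at gene ends (11.8 to 17.8% against 4.91%) and below it between genes.

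With strand taken from the promoter table, CTCF at gene ends was mainly at starts. In the 500 bp before 20063 annotated starts of 16457 coding genes there were 199 peaks per Mb, 9.44 times the density of all autosomal sequence, and in the 500 bp after them 106 per Mb (5.04 times). In the 500 bp before and after the 3' ends of these genes the densities were 35.5 and 53.5 per Mb (1.69 and 2.54 times). The bin with most peaks lay 0 to 100 bp before the start and held 628. Past the 3' end density stayed at 51.6 per Mb 1 to 5 kb beyond it, above the 42.9 per Mb 1 to 5 kb before it, a stretch that runs beyond the gene where the gene is shorter than 5 kb. A midpoint near a start of 1 gene can also be near an end of its neighbour, and alternative starts share peaks.

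Short and long peaks sat differently around the start. In the 500 bp before starts, peaks of 200 bp or more had 11.8 times their density in all sequence, those below 40 bp 9.84 times and those of 40 to below 80 bp 5.99 times. In the 500 bp after starts the order was another: 8.25 times for peaks below 40 bp, 4.39 times for 40 to below 80 bp and 5.44 times for 200 bp or more. Long peaks reached their crest, 81.2 per Mb, 100 to 200 bp before the start, whereas those below 40 bp had 43.4 per Mb in the last 100 bp before it and 41.9 in the first 100 bp after it. At 3' ends only a shallow rise was seen, led by the longest class, at 3.32 times in the first 500 bp beyond the gene.

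**Figure D5:**
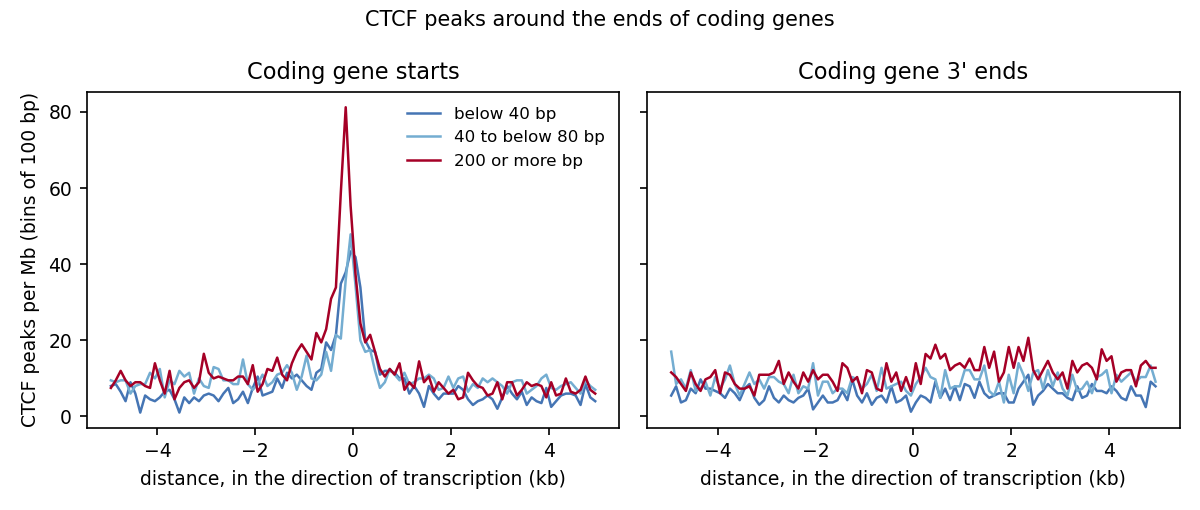
CTCF peaks per Mb (vertical axis, bins of 100 bp) by distance in kb from 20063 starts (left) and 16457 3' ends (right) of coding genes, with positive distances in the direction of transcription, for peaks below 40 bp, of 40 to below 80 bp and of 200 bp or more. At starts the longest class has its crest of 81.2 per Mb just before the start, the shortest class straddles it, and at 3' ends no class exceeds 21 per Mb.

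Long genes held more CTCF peaks but at lower density. Of 20560 coding genes 10409 (50.6%) had a peak midpoint inside, 5428 (26.4%) had one within 1 kb of an end and 8746 (42.5%) had neither. The share with a peak inside was 11.2% below 5 kb, 64.3% at 20 to 50 kb and 97.7% at 500 kb or more. Per 100 kb of gene it was 5.35 peaks below 5 kb, 3.89 at 20 to 50 kb and 1.09 at 500 kb or more. The share with CTCF at an end, a stretch of equal size in all but the shortest genes, was 18.0% for genes below 5 kb, between 27.2 and 29.9% for genes of 5 to 500 kb and 22.7% for the longest. Genes below 5 kb include many olfactory and vomeronasal receptor genes, which rarely had CTCF at an end.

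Single genes departed far from these averages. Most peaks were counted in Gm37013, Gm38666 and Gm38667, nested gene models on chromosome 18 over the clustered protocadherin genes, with 79, 75 and 74 peaks that are largely the same ones. Next came Camta1, a calmodulin-binding transcription activator, with 34 peaks in 802 kb, and Fry with 34 in 379 kb. Per kb, among genes of 20 kb or more, Myh3, the embryonic myosin heavy chain, came first with 6 peaks in 24.02 kb, of 265, 39, 83, 39, 127 and 199 bp. Bnip5, Suds3 (a subunit of the Sin3 deacetylase complex), Iqcd and Il17ra (an interleukin 17 receptor) had 24.3 to 24.9 peaks per 100 kb. At Il17ra the first 2 of 5 peaks were of 39 bp and the last 2 of 222 and 153 bp.

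At the other end were long genes without any peak inside or within 1 kb. Mgat4c, a glycosyltransferase gene of 710 kb, lay in a gap between a 40 bp peak that ends at 100868575 and a 160 bp peak that starts at 102435154 on chromosome 10. Fstl5 (636 kb), Skint5 (522 kb), Edil3 (502 kb) and Kcnh7 (491 kb, a potassium channel) also had none. The nearest peak was 6.14 kb from Fstl5, 29.4 kb from Skint5, 32.6 kb from Kcnh7, 43.4 kb from Mgat4c and 216 kb from Edil3. Kcnh7 was flanked by peaks of 187 and 180 bp, and so not by the shortest calls.

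Among gene lists chosen by symbol, those farthest below the background were tandem families of sensory and hair-forming tissues. Among 1103 olfactory receptor genes 19 had CTCF within 1 kb of an end (1.72%, against 26.4% of all coding genes) and 1080 had none in or near them, with the nearest peak a median of 77.9 kb away. Olfr1358 held 2 peaks, and the longest members without one, Olfr183 and Olfr1280, were 178 and 159 kb from the nearest. Of 351 vomeronasal receptor genes 0 had CTCF at an end, 2 held a peak inside, Vmn2r13 and Vmn2r24, and the median distance was 131 kb. None of 56 keratin-associated protein genes, which build hair, had a peak in or within 1 kb, and the median distance was 19.6 kb. Beta defensins, antimicrobial peptides, had CTCF at an end of 7 of 42 (16.7%), with 2 peaks in Defb19, and cytochromes P450, enzymes of steroid and drug metabolism, at 17 of 99 (17.2%), with 7 peaks in Cyp19a1 and none in Cyp2c39. The median gene length was 0.951 kb for olfactory receptors, 3.21 kb for defensins and 22.5 kb for P450 genes, against 17.6 kb over all coding genes. Of all coding genes below 5 kb 18.0% had CTCF at an end, and of those of 20 to 50 kb 27.8%. The share of the defensins was thus near that of their length class, which also holds many of these receptor genes. How well reads can be placed in such families was not examined, so the lack of a called peak need not mean a lack of CTCF.

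Zfp genes, most of which encode zinc finger proteins and many of which lie in clusters, were near the background. Of 388 Zfp genes 106 had CTCF at an end (27.3%, against 26.4% of all coding genes). For 25 percent of them the nearest peak was more than 14.1 kb away, against 10.2 kb over all coding genes. Zfp469 had 18 peaks inside, whereas Zfp993 and Zfp978, both on chromosome 4, were 888 and 488 kb from the nearest. Hox genes, which pattern the body axis, had CTCF at an end of 13 of 39 (33.3%). Fewer than over all coding genes held a peak inside, 10 of 39 (25.6%, against 50.6%). The nearest peak was a median of 1.69 kb away, against 0 kb over all coding genes. Their median length was 3.74 kb, against 17.6 kb. Among all coding genes below 5 kb, the class that holds this median, 11.2% held a peak inside and 18.0% had CTCF at an end. The Hox shares were thus below all coding genes for peaks inside but above that length class, which also holds many receptor genes. Hoxa3 held peaks of 62, 87, 435 and 462 bp, and Hoxd10 peaks of 176, 198 and 61 bp. Hoxc4 and Hoxc6 had none, with the nearest peak 4.32 and 1.90 kb away.

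Among lists of genes used in every cell, ribosomal protein genes stood above the 26.4% of all coding genes with CTCF at an end. Of 81 cytosolic ribosomal protein genes 40 had it at an end (49.4%) and 15 held a peak inside (18.5%), their median length being 3.18 kb. Among all coding genes below 5 kb, 18.0% had CTCF at an end and 11.2% held a peak inside. That class takes in many olfactory and vomeronasal receptor genes, few of which had CTCF at an end. Its shares without them were not computed. At Rpl3, peaks of 201, 39 and 331 bp lay within the gene or 1 kb of it, and at Rpl4 peaks of 44, 75 and 504 bp, the last pair 258 bp apart and outside the gene. Rps15a had none within 1 kb. Proteasome subunit genes had CTCF at an end of 14 of 39 (35.9%), a count nearer to that background. Psmb7 held 5 peaks of 142, 139, 309, 153 and 324 bp, and Psmd14, 88.7 kb long, held none. Of 12 autosomal genes of CTCF, cohesin and their regulators 7 had a peak at an end. Stag1, a cohesin subunit, held 5 peaks of 233, 229, 39, 242 and 67 bp, Ctcf itself peaks of 185 and 245 bp, and Pds5b, a cohesin regulator, 3 peaks. Rad21 lay in a gap of 80037 bp between peaks of 63 and 144 bp, and Esco2, an acetyltransferase of cohesin, was 11.4 kb from the nearest peak.

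Among longer genes, the share with a peak inside is set beside that of all coding genes in the length class that holds the list's median length. Members of a list can lie outside that class, so the lists are not matched in length. Of 18 glutamate receptor subunit genes (median 271 kb) 17 held a peak inside (94.4%, against 94.5% of all coding genes of 250 to 500 kb), with 14 in Grik4 and 13 in Grik3, and 7 had one at an end (38.9%, against 26.4% of all). Genes whose symbol begins with Kcn (median 34.5 kb) encode potassium channels or proteins that act with them. They held one inside in 61 of 92 (66.3%, against 64.3% of all coding genes of 20 to 50 kb) and at an end in 22 (23.9%). Kcnip1, the gene of a channel-interacting protein, had 13 peaks, and Kcnh7 and Kcnj16 had none. Cadherins, adhesion proteins, had a median length of 148 kb, and 16 of 23 held a peak (69.6%, against 91.5% of all coding genes of 100 to 250 kb). Cdh13 had 32 peaks over 1185 kb and Cdh23 19 over 394 kb, while Cdh8, of the same 393 kb, had 0 and Cdh2, the neural cadherin, had 0. Cdh8 lay in a gap of 513473 bp between peaks of 39 and 83 bp.

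The genes of the pluripotent state were few, and their counts were not tested against the background. Of 19 autosomal pluripotency genes 12 held a peak (63.2%, against 50.6% of all coding genes) and 3 had one at an end (15.8%, against 26.4%). Their median length was 11.9 kb. Among all coding genes of 5 to 20 kb, 41.7% held a peak inside and 29.4% had one at an end. Pou5f1, the OCT4 gene, held peaks of 78 and 59 bp at chromosome 17, 35508425 to 35508502 and 35509459 to 35509517, which lie 956 bp apart. Esrrb, an orphan nuclear receptor gene, held 6 peaks of 119, 113, 105, 106, 202 and 275 bp, with gaps between them of 7639 to 50963 bp. Nr5a2, of the same class, held 5 of 172, 146, 39, 65 and 39 bp. Nanog held none and sat in a gap of 20169 bp between peaks of 66 and 325 bp, and Sox2 sat in a gap of 16338 bp between peaks of 332 and 39 bp. Fgf4 was likewise between peaks, in a gap of 36203 bp. Among 13 genes of terminal tissues 6 held a peak and 3 had one at an end (23.1%), with 5 in Mbp, a myelin gene, and 3 in Col1a1, a collagen gene, of 418, 91 and 95 bp. Myh6, a cardiac myosin gene, and Alb, the albumin gene, had none. Of 6 stem cell marker genes 3 held a peak and of 4 fibroblast marker genes 2, and Twist1, a fibroblast transcription factor, lay in a gap of 435701 bp between peaks of 39 and 53 bp. CTCF near a gene does not show that the gene is expressed.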

How the data were processed

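Peak positions were taken from the deposited CTCF union list (unit other than a score or count: start and end in bp, mm10). The submitters' processing notes name MACS2, bedtools 2.30.0, Bowtie2 2.4.5 and Picard 2.27.4, with no role. Settings, thresholds, controls and the making of the union: not given in the sources used here. Analyses used Python 3.11.15, numpy 2.4.6, pandas 2.3.3, scipy 1.17.1 and matplotlib 3.10.9. Gaps were edge to edge, and a peak's midpoint gave its window and position. Genes came from RefSeq (GRCm38.p6): 20560 coding and 12324 lncRNA genes. Left out were 328 autosomal entries annotated below 3 Mb, where no list has an autosomal peak and which appear to carry scaffold coordinates. Positions were compared with sequence from 3 Mb to the last gene or peak. The promoter table holds none for chromosome 18. Members, lists and classes were chosen with earlier results of these data known. Named items follow fixed rules: the 5 most extreme windows, gaps, runs and genes of each kind, the 10 longest peaks, and per gene list the 2 members with most peaks and the 2 longest with none, of which the text gives a selection. Peaks of loci were added after values were seen. Code was tested on simulated peaks with planted gaps, positions and motifs, all of which it recovered. Alternatives are given in the closing section. Whether the CTCF libraries came from separate cultures is not stated.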

Additional observations from a re-analysis of the deposited data

Results flagged for a closer look

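CTCF peaks outside the autosomes were not used above. The X chromosome held 1191, with a median gap of 37859 bp and a median length of 76 bp, against 16751 bp and 104 bp on the autosomes. The mitochondrial genome held 11 and unplaced scaffolds held 44, of which 21 lay on a single scaffold. No control library was analysed here, and the source of these peaks was not tested.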

How the results depend on the processing

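Of 65 values under alternative settings 50 stayed within the SD over autosomes or, for shares, the binomial interval. Some of the 50 could not move: with the genes below 3 Mb added, shares and differences by position stay identical, since no autosomal peak lies there. The 50 include every Spearman value (0.707 with 500 kb windows to 0.808 with lncRNA genes added) and every Pearson value (0.640 to 0.780). They also include the differences between the longest and shortest length class, which kept their sign. At gene ends that difference was 3.62 points as reported, 5.61 with ends of 2.5 kb and 2.41 with coding genes alone. The other 15 moved as the alternative's construction makes them. With peaks at or above the median length alone the median gap was 31491.5 bp and gaps up to 10 kb were 20.2%. Without peaks below 40 bp these gaps were 32.5%, and with peaks up to 500 bp apart joined 34.3%. The shares at gene ends, inside and between genes were 9.42%, 53.7% and 36.9% with ends of 500 bp, 26.1%, 43.4% and 30.6% with ends of 2.5 kb, and 11.1%, 45.8% and 43.05% with coding genes alone. With any overlap 15.4% were at gene ends. The looser motif was in 29.6% of promoter peaks. The motif alternatives, those without receptor genes and those with the genes left out below 3 Mb were chosen after seeing the data. In 5 equal groups by length, bounded at 49, 85, 132 and 203 bp, shares of classes are set by construction. No paired analysis was possible because a single list stands for both CTCF libraries, and for the same reason no library could be left out.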
